A study of Mus musculus with 4 samples.

Results

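Mouse chromosome 16 was described by all H3K27me2 peaks that the authors called on it in zygotes. The peak files hold 4 lists, the maternal and the paternal genome of 2 genotypes, and 967 of their 56036 peaks lay on chromosome 16. These comprised 165 maternal and 209 paternal peaks of Ezh2m+/p+ zygotes, and 272 maternal and 321 paternal peaks of Ezh2m-/p+ zygotes. The chromosome was chosen by its paternal peaks per Mb and paternal read coverage, which were the lowest of the 20 chromosomes examined, so these low values are a description and were not tested.

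Both groups were PN5 zygotes, a late pronuclear stage of the 1-cell embryo, from C57BL/6J eggs and PWK/PhJ sperm. For Ezh2m+/p+ zygotes the eggs came from mothers with floxed Ezh2 and no Cre. For Ezh2m-/p+ zygotes they came from mothers with floxed Ezh2 and Gdf9-Cre, whose promoter acts in oocytes, so the egg brought no functional Ezh2 allele. The sperm brought an intact Ezh2 allele in both groups. Each group was a pool of zygotes with 1 H3K27me2 library and 1 input library, made by native chromatin immunoprecipitation for very few cells. No replicate stands behind a difference between the genotypes, and none was tested. The number of reads behind each parental genome is not given in the values used here.

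H3K27me2 is the dimethylated form of lysine 27 of histone H3. Polycomb repressive complex 2, with EZH1 or EZH2 as the catalytic subunit and EED and SUZ12 as partners, adds this methyl group and also makes the trimethylated form linked to repressed genes. Sperm carry most of their DNA on protamines, which the egg replaces with histones after fertilization, whereas the maternal chromosomes enter the zygote on the histones of the oocyte. The paternal and the maternal chromosome 16 of these zygotes could be read separately because the parents were of different strains.

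The middle 200 bases of the paternal peak of largest fold of each genotype are shown first. Folds are ratios over input, and those of the 2 genotypes are not on a common scale. Letters are the C57BL/6J reference (GRCm38.p6, plus strand), not the PWK/PhJ allele of the father, and capitals mark CG dinucleotides.
Ezh2m+/p+ paternal, Tmprss2, chr16:97592001-97592200: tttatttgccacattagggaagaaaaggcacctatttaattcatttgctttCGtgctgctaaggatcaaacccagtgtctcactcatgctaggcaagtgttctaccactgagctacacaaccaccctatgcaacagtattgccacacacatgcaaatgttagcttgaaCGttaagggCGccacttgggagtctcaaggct
Ezh2m-/p+ paternal, Snai2, chr16:14738201-14738400: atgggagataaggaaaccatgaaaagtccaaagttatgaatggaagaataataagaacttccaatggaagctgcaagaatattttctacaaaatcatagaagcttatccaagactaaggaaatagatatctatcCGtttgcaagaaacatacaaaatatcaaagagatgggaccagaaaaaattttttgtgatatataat
The stretch of the Tmprss2 peak held 3 CG dinucleotides and 45% G or C. The stretch near Snai2 held 1 CG dinucleotide and 30.5% G or C.

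The middle 200 bases of the paternal and the maternal peak that lay nearest to each other in each genotype are shown next, to show the sequence where peaks of the parental genomes came closest.
Ezh2m+/p+ paternal, Atp13a3, chr16:30399801-30400000: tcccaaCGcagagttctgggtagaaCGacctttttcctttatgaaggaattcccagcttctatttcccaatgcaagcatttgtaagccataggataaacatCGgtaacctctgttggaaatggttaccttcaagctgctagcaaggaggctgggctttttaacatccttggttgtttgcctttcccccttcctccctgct
Ezh2m+/p+ maternal, Atp13a3, chr16:30396201-30396400: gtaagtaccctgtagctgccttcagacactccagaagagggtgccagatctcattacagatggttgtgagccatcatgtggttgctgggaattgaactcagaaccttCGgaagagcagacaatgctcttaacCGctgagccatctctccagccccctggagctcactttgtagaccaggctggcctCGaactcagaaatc
Ezh2m-/p+ paternal, Abcc1, chr16:14378401-14378600: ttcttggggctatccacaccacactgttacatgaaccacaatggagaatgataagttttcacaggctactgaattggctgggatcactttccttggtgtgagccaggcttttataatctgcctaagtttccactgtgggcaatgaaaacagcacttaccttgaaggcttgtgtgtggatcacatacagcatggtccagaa
Ezh2m-/p+ maternal, Abcc1, chr16:14376901-14377100: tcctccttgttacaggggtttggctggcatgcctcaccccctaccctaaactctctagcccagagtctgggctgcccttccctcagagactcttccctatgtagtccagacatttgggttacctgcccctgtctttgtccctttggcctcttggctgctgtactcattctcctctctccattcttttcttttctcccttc
The paternal stretch of Atp13a3 was 12% soft-masked, that is marked as repeat sequence in the reference, and the maternal stretch beside it was 100% soft-masked. In Abcc1 the paternal stretch held no soft-masked base and the maternal stretch was 29.0% soft-masked. Neither Abcc1 stretch held a CG dinucleotide.

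The paternal genome had 2.13 peaks per Mb of chromosome 16 in Ezh2m+/p+ zygotes and 3.27 in Ezh2m-/p+ zygotes. The chromosome with the next fewest was chromosome 10, with 3.07 and 4.80 paternal peaks per Mb. Paternal peaks covered 0.373% and 0.678% of chromosome 16, against 0.571% and 1.05% on chromosome 10. The maternal genome had 1.68 and 2.77 peaks per Mb, and 3 of the 19 other chromosomes had fewer in each genotype. Maternal peaks covered 0.507% and 0.688% of the chromosome.

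**Figure D1:**
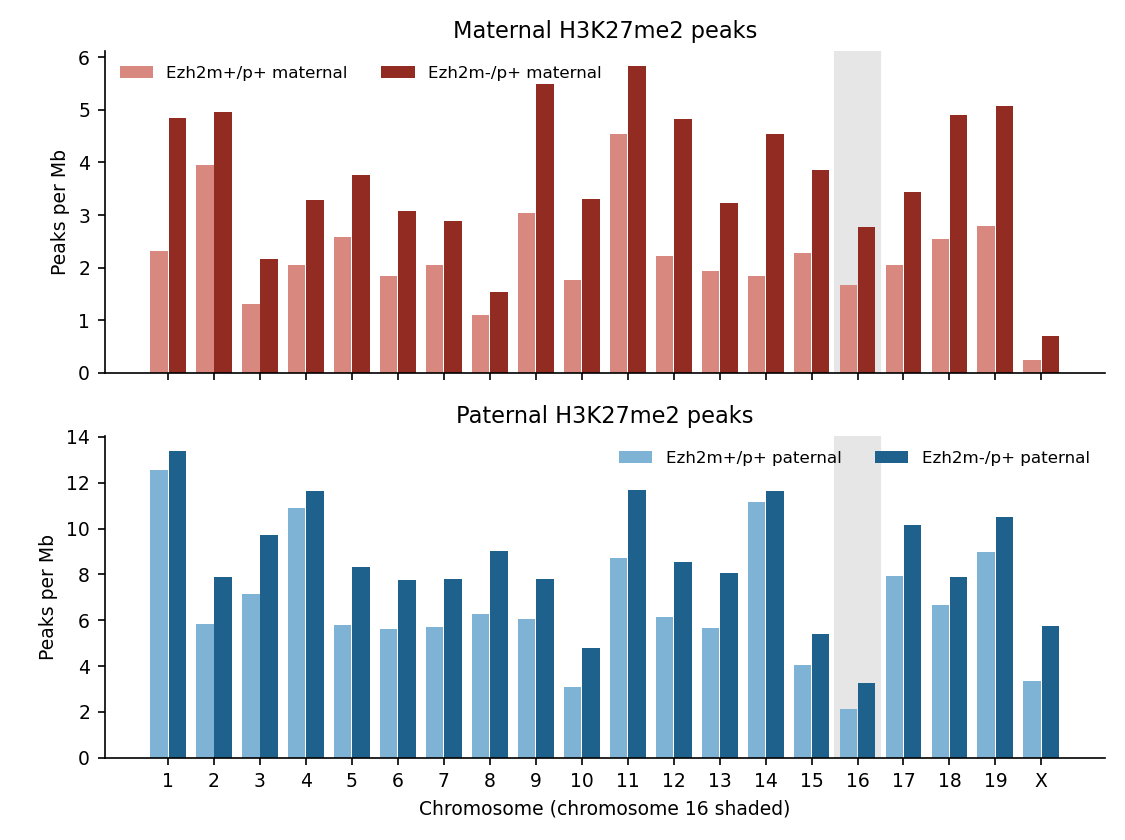
Peaks per Mb (vertical axes) on 20 chromosomes (horizontal axis) for the maternal and the paternal genome, with 1 bar per genotype and chromosome 16 shaded. The paternal bars of chromosome 16, at 2.13 and 3.27 peaks per Mb, are the shortest of the lower panel, whereas its maternal bars, at 1.68 and 2.77, are above those of chromosomes 3, 8 and X.

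Chromosome 16 had 1.27 paternal peaks for each maternal peak in Ezh2m+/p+ zygotes and 1.18 in Ezh2m-/p+ zygotes. The median of the other chromosomes was 2.93 and 2.49. The lowest of them were chromosome 2 with 1.48 and chromosome 15 with 1.41, so both ratios of chromosome 16 lay below those of all 19 others. The ratio uses the paternal counts by which the chromosome was chosen. Among peaks longer than 2000 bp the maternal ones were more numerous, with 45 paternal against 135 maternal peaks in Ezh2m+/p+ zygotes and 108 against 146 in Ezh2m-/p+ zygotes (ratios of 0.333 and 0.740). Among peaks with a fold over 10 the ratios were 2.83 (184 against 65) and 1.08 (226 against 210). Without the 3 windows of 1 Mb with most paternal peaks the ratios were 0.969 and 0.989.

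The coverage table of the authors gives, for each parental genome, the share of a chromosome under its reads. Reads of the maternal genome covered 24.9% of chromosome 16 in Ezh2m+/p+ zygotes and 36.2% in Ezh2m-/p+ zygotes, which was 0.996 and 1.03 times the median of the other chromosomes. Paternal reads covered 1.10% and 1.60%, which was 0.495 and 0.501 times that median. The next lowest paternal coverage was on chromosome X, with 1.13% and 1.89%. Among the other autosomes the lowest was on chromosome 10, with 1.245% and 1.909%. Maternal coverage exceeded paternal coverage 22.65-fold and 22.55-fold on chromosome 16, and the highest ratio elsewhere was 21.6 and 20.4, both on chromosome 10. Between the genotypes, coverage was 1.45 times as high in Ezh2m-/p+ zygotes for the maternal and 1.46 times as high for the paternal chromosome 16, close to the medians of 1.42 and 1.47 over the other chromosomes. The methods describe no scaling of this coverage to sequencing depth. Per the paper, the Ezh2m-/p+ H3K27me2 library was sequenced less deeply than the Ezh2m+/p+ one.

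The few paternal peaks of chromosome 16 were unevenly placed. Of the 96 windows of 1 Mb with known sequence, 44 held an Ezh2m+/p+ paternal peak and 51 held an Ezh2m-/p+ paternal peak, and 41 windows held both. These 41 windows contained 204 of the 209 and 305 of the 321 paternal peaks. The 3 windows with most paternal peaks started at 14, 93 and 7 Mb. In these windows lay 26.3% of the paternal peaks of Ezh2m+/p+ zygotes and 19.9% of those of Ezh2m-/p+ zygotes, beside 3.64% and 4.41% of the maternal peaks. The 10 densest windows of each list held 58.4% and 51.4% of the paternal peaks. On the other chromosomes the median of that share was 48.2% and 42.9%, and 16 of 19 chromosomes had a lower share in each genotype.

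The window from 14 to 15 Mb had 25 paternal peaks in Ezh2m+/p+ zygotes and 22 in Ezh2m-/p+ zygotes, beside 4 and 6 maternal peaks. Most of them lay between Snai2 and Efcab1. Snai2 encodes a zinc finger repressor known from neural crest cells and from the loss of epithelial character. Of the paternal peaks, 11 and 13 were nearest to Snai2, and no maternal peak was nearest to it in either genotype. They spread from 14706601 to 14806799, over and downstream of the gene, which lies at 14705852 to 14709395. The highest fold of chromosome 16, 449.2 over input, belonged to the Ezh2m-/p+ paternal peak at 14734801 to 14741799, a distal intergenic peak of 6999 bp. The Ezh2m+/p+ paternal peak on the same place, at 14733801 to 14740599, was of like length (6799 bp) with a fold of 22.6. The same Ezh2m-/p+ list held 2 further peaks there with a fold of 299.5, where the overlapping Ezh2m+/p+ peaks each had a fold of 48.15. The reads behind these folds are not given in the values used here, so the folds do not measure a difference between the genotypes. Of the paternal peaks of this window, 15 of 25 overlapped a peak of Ezh2m-/p+ zygotes, and 14 of 22 overlapped a peak of Ezh2m+/p+ zygotes.

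The maternal peaks of this window were placed apart from the Snai2 cluster. In Ezh2m+/p+ zygotes they lay in Bmerb1 and in Myh11, the gene of smooth muscle myosin, and had folds between 5.19 and 8.71. In Ezh2m-/p+ zygotes they lay in or near Ifitm7, Myh11, Abcc1 and Efcab1, with folds between 5.74 and 26.0.

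The window from 93 to 94 Mb had 20 and 19 paternal peaks, beside 2 and 6 maternal peaks. Its paternal peaks ran along the long noncoding RNA gene 1700029J03Rik and on to Setd4, a SET domain protein gene. Of the paternal peaks, 8 and 7 lay in or nearest to 1700029J03Rik, and 5 and 6 nearest to Setd4, and no maternal peak did. The longest paternal peak of the chromosome was here, an Ezh2m-/p+ peak of 15599 bp at 93511801 to 93527399 with a fold of 17.1. The promoter peak of 1700029J03Rik at 93457601 to 93460199 had a fold of 144.4 in Ezh2m+/p+ zygotes, and the Ezh2m-/p+ peak over it had a fold of 7.63. At Cbr1, which encodes a carbonyl reductase, the maternal Ezh2m-/p+ peak lay over the promoter (93608201 to 93609799, fold 22.95), and the paternal Ezh2m+/p+ peak lay 35512 bp from the start site with a fold of 48.15. Cldn14, a tight junction claudin, had 3 and 2 paternal peaks, and the peak in its intron at 93969201 to 93970399 was listed with the same borders in both genotypes (folds of 84.3 and 63.0).

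The stretch from 5 to 8 Mb holds Rbfox1, which encodes a splicing factor of neurons and muscle and spans 5884793 to 7412480. It held 30 and 52 paternal peaks, that is 14.4% and 16.2% of all paternal peaks of the chromosome, and 2 maternal peaks in each genotype. In or nearest to Rbfox1 lay 29 paternal peaks of Ezh2m+/p+ zygotes, 18 of them in introns, and 50 of Ezh2m-/p+ zygotes, 33 of them in introns. Their folds ran from 7.52 to 72.2 in Ezh2m+/p+ zygotes and from 5.91 to 126.1 in Ezh2m-/p+ zygotes. No maternal peak lay in an intron or exon of Rbfox1 in either genotype, and the single one assigned to it lay 303556 bp upstream. Although both genotypes had many paternal peaks here, only 10 of the 29 and 11 of the 50 overlapped a peak of the other genotype. In the window from 7 to 8 Mb, 1 of 10 and 1 of 23 did.

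Long stretches had no paternal peak in either genotype. Between 8 and 12 Mb there were none, beside 23 maternal peaks in Ezh2m+/p+ zygotes and 41 in Ezh2m-/p+ ones. This stretch holds Grin2a, an NMDA receptor subunit gene, and Snx29, a sorting nexin gene with 8 maternal peaks in each genotype. Between 19 and 28 Mb there were again none, beside 35 and 53 maternal peaks over 79 protein-coding genes. From 75 to 84 Mb the paternal lists were empty as well, and the maternal lists held 3 and 0 peaks over 12 protein-coding genes. From 16 to 28 Mb as a whole, the maternal genome had 57 and 83 peaks, 34.5% and 30.5% of its lists, and the paternal genome 0 and 2.

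The reverse was seen further along the chromosome. From 59 to 65 Mb and from 66 to 75 Mb no maternal peak was listed in either genotype, and the paternal lists had 9 and 21 peaks in the first stretch and 9 and 23 in the second. From 45 to 49 Mb there were 9 and 18 paternal peaks, all in the first of its 4 windows, and no maternal peak. From 79 to 87 Mb there were 8 and 14 paternal peaks, all after 84 Mb, and no maternal peak. The stretches were picked after their counts had been seen.

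Between 28 and 33 Mb both parental genomes had peaks, 34 and 56 paternal and 15 and 30 maternal. This stretch holds Hes1, Opa1, Fam43a, Xxylt1 and Apod. It supplied 5 of the 10 paternal peaks of Ezh2m-/p+ zygotes that lay nearest to a maternal peak, and most of the 10 of Ezh2m+/p+ zygotes.

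Of the 96 windows, 18 held peaks of both parental genomes in Ezh2m+/p+ zygotes, 26 held paternal peaks only, 30 held maternal peaks only and 22 held neither. In Ezh2m-/p+ zygotes these numbers were 28, 23, 26 and 19. The windows with maternal peaks only contained 330 and 251 of the 679 protein-coding genes of the chromosome, and the windows with paternal peaks only contained 123 and 89.

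**Figure D2:**
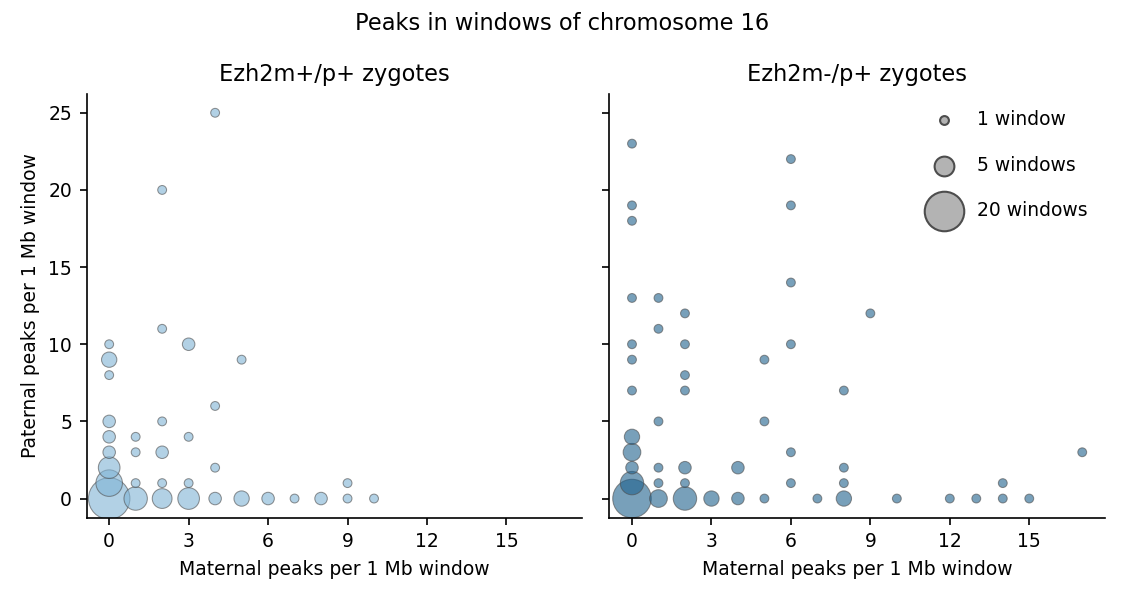
Number of maternal (horizontal axis) and paternal (vertical axis) peaks in each 1 Mb window of chromosome 16, in 1 panel per genotype, with circle area proportional to the number of windows. The windows with 10 or more maternal peaks had 0 to 3 paternal peaks, and the windows with 18 or more paternal peaks had 0 to 6 maternal peaks.

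No paternal peak of Ezh2m+/p+ zygotes overlapped a maternal peak of the same genotype (0 of 209, 95% Wilson interval up to 1.80%). In Ezh2m-/p+ zygotes 1 of 321 did (0.311%, 95% Wilson interval 0.0550% to 1.74%). On the other chromosomes these shares were 0.142% and 0.178%. Wilson intervals here cover the sampling of peaks within 1 library only, and neighbouring peaks are not independent. The overlapping pair lay in an intron of Abcc1, which encodes a multidrug transporter. There the paternal peak at 14378001 to 14378999 had a fold of 63.0, and the maternal peak at 14375801 to 14378199 had a fold of 25.2.

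The closest pair of Ezh2m+/p+ zygotes is annotated to an intron of Atp13a3, the gene of a P5-type transport ATPase, although both peaks lie beyond the RefSeq borders of the gene (30312423 to 30388871), on the side of its start. Of the 344 intron and exon peaks of the 4 lists whose named gene RefSeq gives, 15 lie outside its borders in this way. The paternal peak (30399401 to 30400399, fold 54.2) was 1.60 kb from the maternal peak (30394801 to 30397799, fold 5.53). A paternal peak on the promoter of the same gene (fold 9.03) was 4.80 kb from that maternal peak on its other side. In Xxylt1, which encodes a xylosyltransferase acting on Notch, paternal intron peaks with folds of 36.1 and 120.4 were 11.8 and 17.8 kb from a maternal peak with a fold of 54.95. In Ezh2m-/p+ zygotes the next closest pairs after Abcc1 were Setd4 with Cbr1 (6.20 kb), Scarf2 (8.40 kb) and Acap2 (9.60 kb).

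The median distance from a paternal peak to the nearest maternal peak of the same genotype was 422.6 kb in Ezh2m+/p+ zygotes and 266.8 kb in Ezh2m-/p+ ones, and 10 of the 19 other chromosomes had a shorter median in each genotype. A maternal peak lay within 100 kb of 36 of 209 paternal peaks (17.2%, 95% Wilson interval 12.7% to 22.9%) and of 73 of 321 (22.7%, 18.5% to 27.6%). On the other chromosomes these shares were 19.2% and 27.1%. With the maternal peaks of both genotypes the shares of chromosome 16 were 34.4% and 28.3%. Distances from maternal to paternal peaks were longer, with medians of 1097 and 408.9 kb, beside 260.2 and 243.2 kb on the other chromosomes. A paternal peak lay within 100 kb of 13.3% and 19.5% of the maternal peaks, beside 32.1% and 34.7% elsewhere. These last shares rest on the same paternal lists that served to choose the chromosome.

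**Figure D3:**
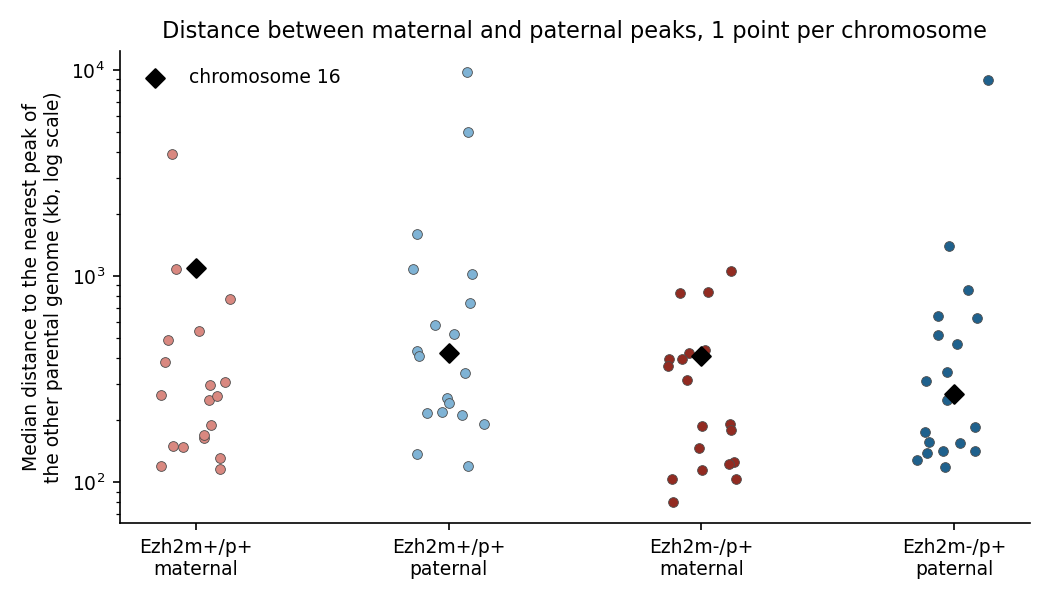
Median distance in kb (vertical log axis) from the peaks of each list (horizontal axis) to the nearest peak of the other parental genome of the same genotype, with 1 circle per chromosome and a diamond for chromosome 16. The diamonds of the paternal lists, at 422.6 and 266.8 kb, lie amid the circles, and that of the Ezh2m+/p+ maternal list, at 1097 kb, is exceeded by 1 circle.

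In these libraries a larger share of paternal than of maternal peaks was found in both genotypes, and the difference was not tested. Of the 209 Ezh2m+/p+ paternal peaks, 94 overlapped an Ezh2m-/p+ paternal peak (44.98%, 95% Wilson interval 38.4% to 51.8%), and 23.9% did so by at least 50% of both peaks. Of the 321 Ezh2m-/p+ paternal peaks, 90 overlapped one of the other list (28.04%, 23.4% to 33.2%). The maternal lists shared 14 of 165 (8.48%, 5.12% to 13.7%) and 15 of 272 peaks (5.51%, 3.37% to 8.90%). Over the other 19 chromosomes the paternal shares were 66.4% and 45.95%, and the maternal shares 9.50% and 5.79%. Chromosome 16 had the lowest paternal shares of the 20 chromosomes, and the next lowest were 55.2% and 31.0% on chromosome X. Across chromosomes the paternal share went with the density of paternal peaks. The Spearman correlation over 20 chromosomes was 0.74 in Ezh2m+/p+ zygotes and 0.76 in Ezh2m-/p+ ones. Without chromosome 16, which was chosen by this density, it was 0.70 and 0.72. These values are a description over chromosomes that share 1 library. Without the 3 densest windows of chromosome 16, 66 of 154 Ezh2m+/p+ paternal peaks overlapped (42.9%).

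**Figure D4:**
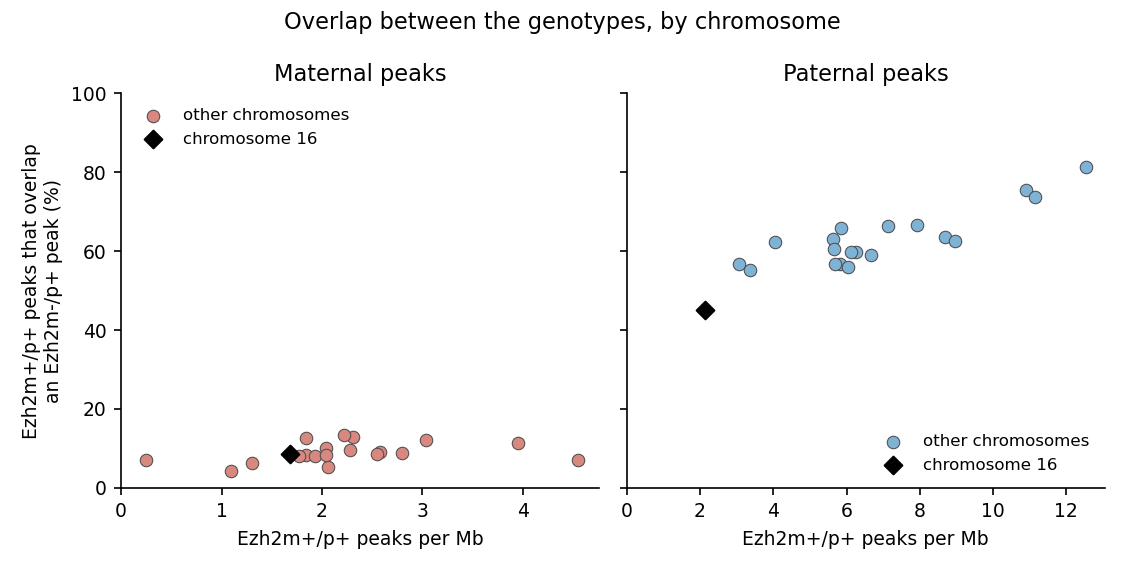
Share of Ezh2m+/p+ peaks that overlap an Ezh2m-/p+ peak by at least 1 bp (vertical axis, percent) against Ezh2m+/p+ peaks per Mb (horizontal axis), for maternal and paternal peaks, with 1 circle per chromosome and a diamond for chromosome 16. Chromosome 16 lies at the lower left of the paternal panel (2.13 peaks per Mb, 44.98%) and among the other chromosomes in the maternal panel (8.48%).

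The overlapping paternal peaks were longer than the rest, with a median of 1799 bp against 1399 bp in Ezh2m+/p+ zygotes and 2399 bp against 1599 bp in Ezh2m-/p+ zygotes. Their median fold was 39.1 against 36.1 in Ezh2m+/p+ zygotes, and 17.7 against 55.2 in Ezh2m-/p+ zygotes. Counted by gene, the shared part was larger. Of the 74 protein-coding genes with an Ezh2m+/p+ paternal peak, 59 (79.7%) also had an Ezh2m-/p+ paternal peak, which is 66.3% of the 89 genes of that list. The maternal lists shared 54 genes, 51.4% of 105 and 35.5% of 152. A gene was counted for a peak where the annotation of the authors named it as owner of the nearest start site. Where a gene was also counted for a peak annotated to its introns or exons, the paternal lists shared 61 genes, 79.2% of 77 and 65.6% of 93, and the maternal lists shared 62, 54.9% of 113 and 39.5% of 157.

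Paternal peaks of chromosome 16 were shorter than maternal ones in these lists. Their median length was 1599 bp in Ezh2m+/p+ zygotes and 1799 bp in Ezh2m-/p+ ones, against 2799 bp and 2199 bp for maternal peaks. Of the paternal peaks, 21.5% and 33.6% were longer than 2000 bp, the lowest shares of the 20 chromosomes, with 22.6% on chromosome X and 34.2% on chromosome 12 as the next lowest. Over the 20 chromosomes, which share 1 library, this share had a Spearman correlation of 0.81 and 0.57 with paternal peaks per Mb. Without chromosome 16, which was chosen by its paternal peaks per Mb, the correlation was 0.78 and 0.50. The median fold over input was 36.1 and 23.6 for paternal peaks and 7.04 and 23.7 for maternal peaks. Folds are those of the authors' peak caller and took few values. The 209 Ezh2m+/p+ paternal peaks had 33 distinct folds, compared at 6 decimals, and 63.2% of the peaks had 1 of 3 values (36.1, 48.15 or 60.2). The 321 Ezh2m-/p+ paternal peaks had 54 distinct folds, and 39.6% of the peaks had 1 of 3 values (63.0, 78.8 or 7.88). Equal folds at different places were therefore common. The number of reads behind a fold is not given in the values used here. The input depth of each parental genome is not given in the values used here, so folds set side by side for the genotypes are not levels on a common scale.

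**Figure D5:**
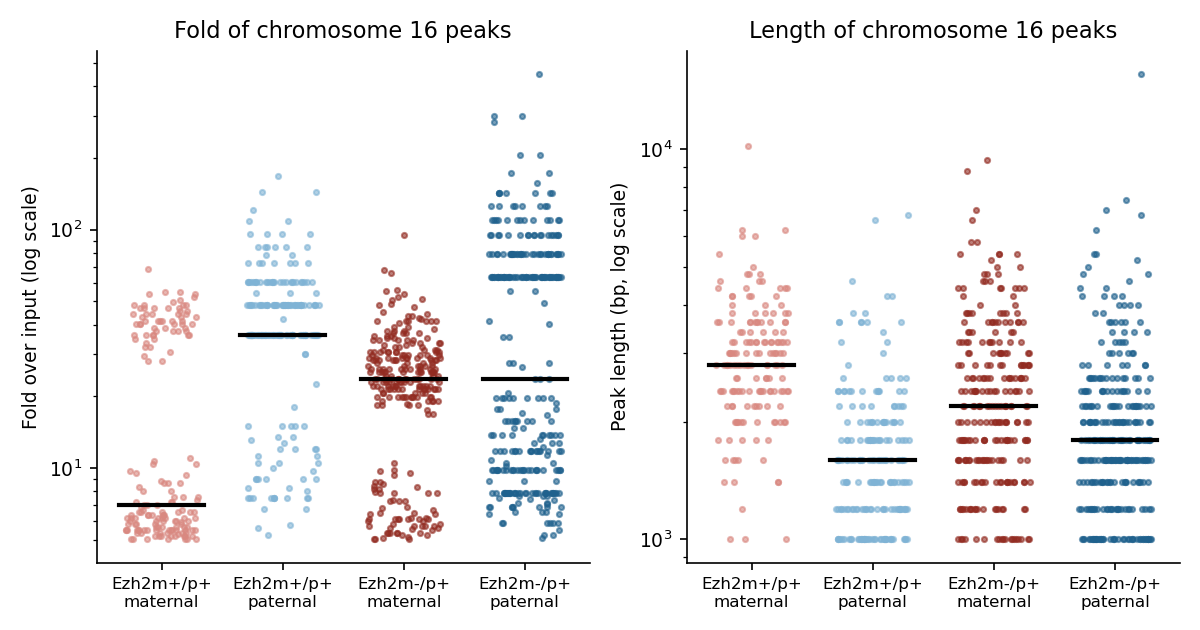
Fold over input (left, log axis) and length in bp (right, log axis) of the chromosome 16 peaks in the 4 lists, with 1 point per peak and a line at the median. Paternal folds form horizontal rows at repeated values such as 36.1 and 63.0, and paternal medians of length, 1599 and 1799 bp, lie below the maternal ones, 2799 and 2199 bp.

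Of the paternal peaks, 42.6% (95% Wilson interval 36.1% to 49.4%) in Ezh2m+/p+ zygotes and 42.7% (37.4% to 48.1%) in Ezh2m-/p+ ones were distal intergenic. The maternal shares were 29.1% (22.7% to 36.4%) and 30.1% (25.0% to 35.9%). Introns held 29.7% and 32.7% of the paternal peaks, exons 7.66% and 6.85%, and UTRs 4.31% and 3.43%. Promoters, the region within 3 kb of a start site, held 14.4% and 13.4% of the paternal peaks and 15.8% and 20.2% of the maternal peaks. On the other chromosomes promoters held 17.4% and 16.99% of the paternal peaks, within the intervals of chromosome 16 (10.2% to 19.8% and 10.1% to 17.6%). Of the 24 shares, 6 categories in 4 lists, the value of the other chromosomes lay outside the interval for 3. Introns held 32.7% of the Ezh2m-/p+ paternal peaks (27.8% to 38.02%) against 27.2% elsewhere, and 30.1% of the Ezh2m-/p+ maternal peaks were distal intergenic (25.0% to 35.9%) against 36.0% elsewhere. Exons held 6.85% of the Ezh2m-/p+ paternal peaks (4.57% to 10.16%) against 10.16% elsewhere, at the edge of the interval.

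The paternal peak of largest fold in Ezh2m+/p+ zygotes lay in Tmprss2, which encodes a transmembrane serine protease, at 97590201 to 97593999 with a fold of 168.5. It is annotated as a promoter peak, although it lies inside the gene (97564682 to 97659541), at the start site of one of its transcripts. The Ezh2m-/p+ paternal peak over it had a fold of 49.25. Next came Abi3bp, the gene of an extracellular matrix protein, with a promoter peak at 56475201 to 56477399 (fold 144.4, and 35.5 for the overlapping Ezh2m-/p+ peak), and the promoter of 1700029J03Rik. An intron peak of Xxylt1 at 31035201 to 31036799 had a fold of 120.4, and 7.39 in Ezh2m-/p+ zygotes. All 5 Ezh2m+/p+ paternal peaks of largest fold overlapped an Ezh2m-/p+ peak. In Ezh2m-/p+ zygotes 4 of the 5 lay in the Snai2 cluster, the last of them level with a peak near Gm36742 (both 204.9), and 1 lay near Fam43a at 30623401 to 30627599, with a fold of 283.7 beside 15.05 for the Ezh2m+/p+ peak over it. These 5 also overlapped a peak of the other genotype.

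Among promoter and exon peaks, the highest fold belonged to Pcyt1a, which encodes an enzyme of phosphatidylcholine synthesis. Its Ezh2m-/p+ paternal promoter peak at 32460001 to 32463399 had a fold of 173.4 and no counterpart in Ezh2m+/p+ zygotes. This peak lies inside the gene (32430921 to 32475065), at the start site of one of its transcripts. The promoter of Opa1, a gene of mitochondrial inner membrane fusion, had a paternal peak in both genotypes, with folds of 96.3 (29579401 to 29580599) and 157.6 (29577601 to 29580199). Muc20, a mucin gene, had a promoter peak in both genotypes with folds of 60.2 and 126.1. Apod, the gene of apolipoprotein D, had one with folds of 96.3 and 6.57. The longest Ezh2m+/p+ paternal peak was the Snai2 peak of 6799 bp.

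Among maternal peaks, the one of highest fold in both genotypes was assigned to St6gal1, a sialyltransferase gene, with folds of 68.4 (23213601 to 23218599) and 94.8 (23242801 to 23248199). The next highest were near Rpl39l and in Xxylt1 (both 54.95) in Ezh2m+/p+ zygotes, and near Cpn2 (68.1) and in Map3k13 (65.8) in Ezh2m-/p+ zygotes. The longest maternal peaks, of 10199 bp near Mir8095 and of 9399 bp at Igf2bp2, lay at 22531201 to 22541399 and at 22064601 to 22073999. With the exception of Rpl39l, Xxylt1 and Cpn2, all of these lie between 16 and 28 Mb, where the paternal lists had 0 and 2 peaks.

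The sequence under the peaks was richer in G and C than the chromosome. The median was 44.5% and 43.5% for paternal and 45.8% and 46.5% for maternal peaks, against 40.9% for the known sequence of chromosome 16. The median number of CG dinucleotides per kb was 8.004 and 7.15 for paternal and 8.60 and 9.49 for maternal peaks, against 7.95 for the chromosome. The median soft-masked share was 19.6% and 19.6% for paternal and 20.2% and 19.1% for maternal peaks, against 33.1% for the chromosome. The chromosome values are averages over all known bases, not medians over stretches of peak length. Of the 1078 RefSeq promoters of chromosome 16, each of 300 bases from 250 before to 50 after the start, 6 lay under an Ezh2m+/p+ and 14 under an Ezh2m-/p+ paternal peak. They held a median of 11.5 and 10.5 CG dinucleotides, searched as the letters CG, against 6 for all 1078 promoters. At least 5 CG dinucleotides were found in 83.3% and 100% of them and in 58.7% of all promoters. Under maternal peaks lay 9 and 14 promoters, with medians of 5 and 9, and 55.6% and 50% of them held at least 5. The Ezh2m-/p+ paternal ones include overlapping promoters of Rubcn and Fyttd1, with 38 CG dinucleotides each. With 6 to 14 promoters per list these are descriptions of few sequences. The promoters of the named genes Opa1 and 1700029J03Rik lie under a paternal peak and are printed as RefSeq gives them (GRCm38.p6), with CG in capitals. They were chosen after the peaks had been seen.
Opa1 promoter, chr16:29579084-29579383, plus strand: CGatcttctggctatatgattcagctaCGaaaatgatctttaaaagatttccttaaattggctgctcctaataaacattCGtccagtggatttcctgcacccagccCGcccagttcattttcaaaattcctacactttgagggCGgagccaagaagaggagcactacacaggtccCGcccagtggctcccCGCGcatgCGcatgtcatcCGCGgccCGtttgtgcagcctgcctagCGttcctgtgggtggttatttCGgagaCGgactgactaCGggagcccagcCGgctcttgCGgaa
1700029J03Rik promoter, chr16:93458823-93459122, minus strand: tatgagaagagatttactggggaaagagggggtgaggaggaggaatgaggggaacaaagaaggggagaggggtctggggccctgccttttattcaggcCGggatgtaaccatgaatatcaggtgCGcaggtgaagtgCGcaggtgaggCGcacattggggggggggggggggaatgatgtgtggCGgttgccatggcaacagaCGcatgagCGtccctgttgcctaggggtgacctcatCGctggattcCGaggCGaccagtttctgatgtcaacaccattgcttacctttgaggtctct
The Opa1 promoter holds 18 CG dinucleotides and lies within the Ezh2m-/p+ paternal peak. The 1700029J03Rik promoter holds 10 and lies under the paternal peaks of both genotypes.

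Gene groups of chromosome 16 were read against all 679 protein-coding genes. Of these, 10.9% had an Ezh2m+/p+ paternal peak, 13.1% an Ezh2m-/p+ paternal peak, 15.5% an Ezh2m+/p+ maternal peak and 22.4% an Ezh2m-/p+ maternal peak, counted by the nearest start site as above. Of 15 genes of axon guidance and cell adhesion, 7 and 8 had a paternal peak and 3 and 4 a maternal peak. The paternal ones in both genotypes were Robo1 and Robo2, the receptors of Slit proteins, Epha6, an ephrin receptor, and the adhesion genes Lsamp, Cadm2, Dscam and Igsf11, with Epha3 added in Ezh2m-/p+ zygotes. The annotation also places 2 Ezh2m-/p+ paternal peaks (folds of 23.6 and 63.0) in introns of Igsf5, an immunoglobulin superfamily gene, but they lie beyond its RefSeq end at 96465572 and within Pcp4, so Igsf5 was not counted. Neither the length of the genes nor the distance of a peak from its gene was taken into account in these counts. The only Ezh2m+/p+ paternal peak of Epha6 was distal intergenic, 1052270 bp upstream of the start site. That of Cadm2 was also distal intergenic, 56093 bp upstream, whereas those of Robo1 and Lsamp lay in introns.

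Robo2 had 2 and 4 paternal peaks and no maternal peak. The pair at 74687601 and 74687801, 275776 and 275976 bp from the start site, lay on the same place in both genotypes, with folds of 60.2 and 78.8. Robo1 had 1 and 2 intron peaks with folds of 36.1, 63.0 and 8.87. Igsf11 had 5 and 4 paternal peaks, the highest with a fold of 48.15 in Ezh2m+/p+ zygotes and of 41.4 in Ezh2m-/p+ zygotes. Dscam, which encodes a cell adhesion molecule of neurons, had peaks of both parental genomes. Its 3 and 4 paternal peaks lay upstream of the gene, between 97180201 and 97261999. Its 2 and 4 maternal peaks lay between 96576601 and 97072399, in the gene or beyond its end.

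The segment whose human counterpart is the 22q11 deletion region had maternal peaks with almost no paternal ones. Of 33 genes, 8 and 12 had a maternal peak, and 0 and 2 had a paternal peak. Maternal peaks of both genotypes were assigned to Dgcr2, Septin5, Tbx1, Gnb1l, Pi4ka and Med15. Tbx1, a T-box factor of heart and pharyngeal development, had a promoter peak with a fold of 31.4 in Ezh2m-/p+ zygotes and an intergenic peak with a fold of 5.53 in Ezh2m+/p+ zygotes. The 2 genes with a paternal peak were Hira, the chaperone that deposits histone H3.3, and Scarf2, a scavenger receptor gene. The Hira peak was distal intergenic, 999 bp long with a fold of 63.0, and the Scarf2 peak lay at its promoter, 999 bp long with a fold of 9.85. Both were in Ezh2m-/p+ zygotes, and both genes also had a maternal peak there.

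In the distal segment whose counterparts lie on human chromosome 21, 10 and 12 of 45 genes had a maternal peak and 6 and 6 a paternal peak. App, the amyloid precursor gene, had 1 and 3 paternal peaks and no maternal peak, and its intron peak was listed in both genotypes (folds of 36.1 and 15.8). Grik1, a kainate receptor gene, had 3 and 4 paternal peaks and 0 and 1 maternal peaks. Runx1, a factor of blood cell development, had 3 and 5 maternal peaks, and 1 paternal peak downstream of the gene in each genotype, at the same place, with folds of 36.1 and 6.90. Sod1, Tiam1 and Rcan1 had maternal peaks in both genotypes and no paternal peak.

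Of 23 transcription factor genes, 4 and 4 had a paternal peak and 7 and 8 a maternal peak. Snai2, Runx1 and Pou1f1, the pituitary POU factor, had a paternal peak in both genotypes, Hes1 in Ezh2m+/p+ zygotes and Gabpa in Ezh2m-/p+ ones. At Pou1f1 the 3 and 2 paternal peaks lay 34112 to 86912 bp upstream, and the maternal Ezh2m-/p+ peak lay on the promoter (65519001 to 65520199, fold 16.8). Of 14 channel and synaptic genes, 1 and 2 had a paternal and 3 and 8 a maternal peak. Adcy9, which encodes an adenylate cyclase and is among the 8, also held 2 Ezh2m+/p+ maternal peaks in its exons (folds of 5.70 and 52.3), which were nearest to another start site and are not in the count of 3.

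Olfactory receptor genes, which form arrays of related genes expressed in nasal neurons, stand in separate places on the chromosome. Of 36 such genes, 3 and 6 had a paternal peak and 3 and 5 a maternal peak. Between 19 and 20 Mb, 3 and 10 maternal peaks were assigned to Olfr164, Olfr165, Olfr166 and Olfr169, and no paternal peak, of 4 and 13 maternal and no paternal peaks of this window in all. Between 58 and 60 Mb, 4 and 7 paternal peaks were assigned to receptor genes such as Olfr178, Olfr186 and Olfr187, and 0 and 1 maternal peaks, of 14 and 24 paternal and 0 and 1 maternal peaks there in all. Olfr187 had 3 Ezh2m-/p+ paternal peaks with folds of 78.8, 78.8 and 63.0, one of them over its start site. Receptor genes are similar in sequence, and how reads with several matches were treated beyond the filter on mapping quality was not examined.

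Other groups had few peaks or none. None of the 4 genes of sperm chromatin proteins, the protamines and transition protein Tnp2, had a peak in any list, nor did the 4 stefin genes. Of 24 keratin-associated protein genes, 2 had an Ezh2m+/p+ maternal peak (Krtap27-1 and Krtap7-1), and none had a peak in the other lists. Of 7 genes with the symbol Cldn, 1 and 2 had a paternal and 1 and 1 a maternal peak. They include Cldnd1, a claudin domain gene that is not a claudin, whose promoter had an Ezh2m-/p+ paternal peak with a fold of 6.90.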

How the data were processed

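H3K27me2 was measured in pooled zygotes, with 1 immunoprecipitated and 1 input library per genotype. Per the study's methods and processing notes, reads were trimmed (Trimmomatic 0.38), aligned to mm10 (Bowtie2), filtered on mapping quality, freed of duplicates (Picard) and split by parent with SNPsplit, which assigns only reads over a strain variant. Peaks came from SICER with the input as control, were filtered on length and fold, and were annotated with ChIPseeker.

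The deposited peak lists hold positions, lengths in bp, annotations, distances to the nearest start site, and a fold that is the ratio over input. The coverage table deposited by the authors holds a fraction per chromosome. Of its 126 values, 42 belong to 2 other groups and were not used. Depth per parental genome is unknown.

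Chromosome 16 peaks were taken as listed, and chromosomes 1 to 19 and X served for comparison. Peaks were placed by their start in windows of 1 Mb, and overlap meant at least 1 bp. Sequence came from GRCm38.p6, which has the coordinates of mm10, and gene names from RefSeq. On chromosome 16, 110 of the 111 gene identifiers of the Ezh2m-/p+ paternal list had a symbol, and all did in the other lists. Shares carry 95% Wilson intervals. No test was made, since each genotype had 1 library. The routines were tested on simulated intervals, where 100 of 100 planted overlaps among 400 intervals were found. Python 3.11.15, numpy 2.4.6, pandas 2.3.3, statsmodels 0.14.6 and matplotlib 3.10.9 were used.

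Members and gene lists were chosen with earlier results of these data known. Named peaks were the 5 paternal or 3 maternal peaks of largest fold and the longest 2 or 1 of each list, up to 15 paternal promoter and exon peaks by fold, paternal peaks nearest a maternal peak, genes of the 3 densest paternal windows, and members of the gene lists. One of these peaks is not reported here. Alternatives were stricter limits (fold over 10, length over 2000 bp), shifted windows, a reciprocal overlap of 50%, distance between centres, maternal peaks of both genotypes, covered base pairs, promoters by distance, and autosomes only. Leaving out the 3 densest windows, the ratio of paternal to maternal peaks under the limits, and counting genes also by intron and exon peaks were added after the data were examined.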

Additional observations from a re-analysis of the deposited data

Results flagged for a closer look

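For 5 measures of the chromosome 16 peaks, the difference between the genotypes (Ezh2m-/p+ minus Ezh2m+/p+) had opposite signs in the maternal and the paternal lists. With 1 library per genotype none of these differences was tested. The median length differed by -600 bp in the maternal and by 200 bp in the paternal lists. The share of peaks over 2000 bp differed by -28.1 percentage points in the maternal and by 12.1 in the paternal lists. The median fold differed by 16.7 in the maternal and by -12.5 in the paternal lists. The promoter share differed by 4.46 percentage points in the maternal and by -0.958 in the paternal lists. The intron share differed by -2.30 percentage points in the maternal and by 3.05 in the paternal lists. Both signs were the same as on chromosome 16 on 19 of the 19 other chromosomes for the median length and for the share over 2000 bp, on 18 for the median fold, on 7 for the promoter share and on 3 for the intron share.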

How the results depend on the processing

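Of 45 alternatives for 18 values, 30 stayed within the limits set for them (1.5 times for a count, the Wilson interval for a share, the spread over chromosomes for coverage) 11 moved and 4 reversed a direction. The ratio of paternal to maternal peaks, above 1 as listed, was 0.333 and 0.740 with a length over 2000 bp and 0.969 and 0.989 without the 3 densest windows, and with a fold over 10 it was 2.83 in Ezh2m+/p+ zygotes. The alternatives of this ratio were chosen after the data were examined. The cause of the moves was not tested beyond what each alternative removes. With a fold over 10, 65 of the 165 Ezh2m+/p+ maternal peaks were left. With a length over 2000 bp, 135 Ezh2m+/p+ maternal, 45 Ezh2m+/p+ paternal, 146 Ezh2m-/p+ maternal and 108 Ezh2m-/p+ paternal peaks were left. The share of Ezh2m+/p+ peaks overlapping between genotypes was, for paternal peaks, 23.9% with a reciprocal overlap of 50%, 31.0% with a fold over 10 in both lists and 28.04% as a share of the Ezh2m-/p+ list, and for maternal peaks 1.54% with a fold over 10. With the maternal lists of both genotypes, 34.4% and 28.3% of the paternal peaks had a maternal peak within 100 kb. Leaving out the 3 densest windows, also chosen after the data were examined, moved none of the 9 other values it was applied to. No paired analysis was possible because each genotype had 1 library and no result came from a test. Per the paper, the Ezh2m-/p+ H3K27me2 library was the less deeply sequenced one. The number of reads behind each parental genome is unknown, so what depth limits could not be measured.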

Other observations

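The peak lists carry the numbers that peaks had before the authors' filter, so the numbers spanned on a chromosome give the size of the unfiltered set if numbering followed position. On chromosome 16 they spanned 350 numbers in the Ezh2m+/p+ and 447 in the Ezh2m-/p+ paternal list, the fewest of the 20 chromosomes, and 617 and 955 in the maternal lists. Of these numbers, 59.7% and 71.8% were listed for the paternal genome and 26.7% and 28.5% for the maternal genome. The median of the other chromosomes was 64.9% and 70.7% for the paternal genome and 27.4% and 29.4% for the maternal genome.

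Exon peaks of the paternal lists had a median fold of 42.1 over 16 peaks in Ezh2m+/p+ zygotes and of 14.8 over 22 peaks in Ezh2m-/p+ zygotes, whereas distal intergenic paternal peaks had medians of 36.1 and 63.0. These differences were not tested.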
